A study of Arabidopsis thaliana with 8 samples.

Results

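KO-02 and KO-07 are 2 Arabidopsis thaliana lines with T-DNA insertions that knock out WRKY genes, and each was measured on 1 of the 8 ATH1 arrays of the study. The pair was chosen by the likeness of its arrays, which was the highest of the 28 array pairs on most measures, and it was set against the 2 arrays of Col-0, the wild type. Likeness is therefore given here as a description. Over the 15922 probe sets bright enough to keep, the pair correlated with r = 0.9879, the highest of the 28, and the lowest pair had r = 0.967. KO-07 and KO-40 came next, close behind, with r = 0.9873. Only 68 probe sets (0.427%) differed by more than 2-fold between KO-02 and KO-07, against 128 between the Col-0 arrays and 531 in the least alike pair. The next lowest counts were 83 for KO-30 and Col-0-S, 98 for KO-07 and Col-0-S, and 99 for KO-07 and KO-40. Over all 22746 probe sets without controls, on the log2 scale, the pair ranked second: KO-07 and KO-40 correlated with r = 0.9874 and KO-02 and KO-07 with r = 0.9867. On linear signals over the same probe sets the pair ranked first (r = 0.9963). By rank (Spearman) correlation, which does not depend on the scale, it was again second, at 0.9821 against 0.9833 for KO-07 and KO-40. "Most alike" thus holds for brighter probe sets, and over the whole array only by the correlation of linear signals.

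All plants shared the same growth. Plants aged 35 days were at the onset of bolting, the tissue was the whole rosette without stem and flowers, and the chamber was kept at 70% humidity with 22 °C days and 19 °C nights. The soil of every group held the insecticide imidacloprid and a slow-release fertiliser. The Col-0 arrays have titles ending in L and S, which the labels do not explain, and they are called Col-0-L and Col-0-S here. The remaining 4 arrays held the insertion lines KO-30, KO-40, KO-54 and KO-56. The labels do not say which WRKY gene an insertion hits, how many plants made up an array or whether a line is 1 isolate, and no gene number was read from a line's name. The level of the disrupted gene was not analysed here, so no line was checked against its label in that way.

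WRKY proteins are plant transcription factors that bind W-box elements in DNA. Many of them are made in response to pathogens, and their targets include defence genes and other WRKY genes. Several, WRKY6 and WRKY53 among them, become more active as leaves age, and the series is concerned with group II-A WRKY factors and early leaf senescence. Defence in the rosette runs through hormones, with jasmonate and ethylene together turning on antimicrobial peptides such as the plant defensin PDF1.2.

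The values are MAS5 signals, linear intensities that the authors scaled so that every array had a trimmed mean near 100 (array medians 35.96 to 39.15). Differences are of log2(signal + 5), a scale that makes the change of dim genes look smaller than it is. The rosette genes RCA, LHCB4.1 and PRK of photosynthesis were bright on all 8 arrays (signals of 1627 to 4740). SPL, the 1 flower marker matched in the annotation used, read at most 1.61, and none of the 3 root markers matched there passed the filter. The other flower markers sought had no match, so this reading says little about flower tissue. For the actin control, whose 3' probes outshine the 5' probes more as RNA degrades, the ratio of both signals was 11.9 in KO-02 and 12.0 in KO-07, against 9.98 (Col-0-L) and 10.9 (Col-0-S). It was 15.4 in KO-30 and 29.5 in KO-54. The same ratio for GAPDH was 1.444 in KO-02 and 1.413 in KO-07, against 1.229 (Col-0-L) and 1.406 (Col-0-S). For ubiquitin it was 2.48 in KO-02 and 2.35 in KO-07, against 2.68 (Col-0-L) and 2.41 (Col-0-S), so the lines overlapped Col-0. The part of these ratios in the results was not tested. The 25S ribosomal RNA control was 70.9 in KO-07, 275 in KO-02 and between 250.4 and 303 in Col-0. In whole rosettes, fewer cells of a type and less RNA per cell cannot be told apart.

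The comparison asked what KO-02 and KO-07 had in common against Col-0. A probe set counts as shared when both lines lay above both Col-0 arrays, or both below, and the gap is the log2 distance between the nearest line array and the nearest Col-0 array. Both lines lay above in 3061 of 15922 probe sets (19.2%) and below in 2864 (18%), together 5925 (37.2%). With so few arrays on each side, many probe sets meet this rule by order alone, so these counts do not measure change. A gap of over 0.5 was seen in far fewer, 52 above (0.327%) and 29 below (0.182%), or 81 in all (0.509%).

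No probe set passed the test. In limma, with a Benjamini-Hochberg adjusted p under 0.05 as the threshold, 0 of 15922 (0%) were called and the smallest adjusted p was 0.9997. At an unadjusted p under 0.05 there were 287 probe sets, 141 higher and 146 lower in the pair, where 796.1 would be below that limit by chance alone. The spread in this fit came from both Col-0 arrays and from the 4 other lines, which differ in genotype, so differences among those lines count as error. The median standard error of a log2 difference was 0.20. Everything that follows on single genes is therefore a description of 4 arrays, and the adjusted p of every named gene against Col-0 was at least 0.9997. The pair was chosen for likeness and most named genes by gap, so closeness of the lines in a gene was favoured in advance.

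**Figure D1:**
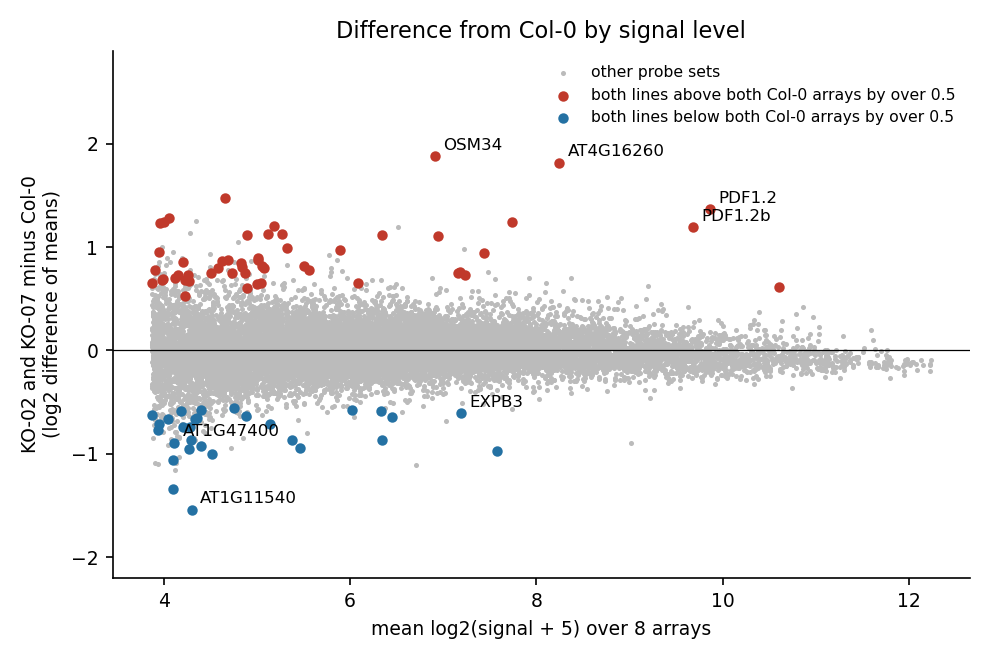
Log2 difference of KO-02 and KO-07 from Col-0 (vertical axis) against the mean log2(signal + 5) over 8 arrays (horizontal axis) for 15922 probe sets, with the 52 that lay above both Col-0 arrays by over 0.5 in red and the 29 below by over 0.5 in blue. Most coloured points sit at low signal, and OSM34, AT4G16260, PDF1.2 and PDF1.2b stand apart at higher signal.

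Defence genes led the shared higher side. OSM34, an osmotin-like protein of the thaumatin family with antifungal relatives, had a signal of 178 in KO-02 and 163 in KO-07, against 44.0 (Col-0-L) and 41.3 (Col-0-S). Its log2 difference was 1.88 ± 0.83 (SE), a 3.99-fold ratio of mean signals, and the gap of 1.78 was the widest of all probe sets with 1 gene. Both lines were far above both Col-0 arrays and close to each other. AT4G16260 followed, with 467 in KO-02 and 457 in KO-07 against 118 and 137 in Col-0, a log2 difference of 1.82 ± 0.85.

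PDF1.2, the plant defensin used as the standard marker of jasmonate and ethylene defence, read 1344 in KO-02 and 1092 in KO-07, with 368 (Col-0-L) and 592 (Col-0-S) (log2 difference 1.37 ± 0.75). On the log2 scale, the Col-0 arrays differed from each other here by more than the lines did. PDF1.2b, its close relative, read 1080 and 923 in the lines against 367 and 512, a difference of 1.19 ± 0.73. Its probe set is of the type that shares sequence with related genes, so signal of PDF1.2 and PDF1.2b may be mixed.

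The other leading higher genes were dimmer. AT3G59290 had 33.5 in KO-02 and 33.1 in KO-07 against 16.1 (Col-0-L) and 16.5 (Col-0-S), so both groups were tight and differed by 0.85 ± 0.25. AT5G05130 had 24.8 and 21.4 against 11.9 and 10.4, a log2 difference of 0.80 ± 0.19. BGLU31, a member of the beta-glucosidase family that splits sugars from storage and defence compounds, had 31.4 and 29.6 against 17.8 and 14.5. AT1G12720 had 17.9 and 18.0 in the lines, with the Col-0 arrays apart from each other at 8.03 and 2.34. AT3G23550, AT3G49340, AT5G22530 and AT4G23840 complete the first 12, with log2 differences of 1.11, 0.97, 0.75 and 0.73. The line values of AT3G49340 were unequal, 53.5 in KO-02 and 86.2 in KO-07. AMY1, a secreted alpha-amylase that breaks down starch and was picked after its values were seen, had 157 and 170 against 107 and 86.5 (log2 difference 0.73 ± 0.61).

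**Figure D2:**
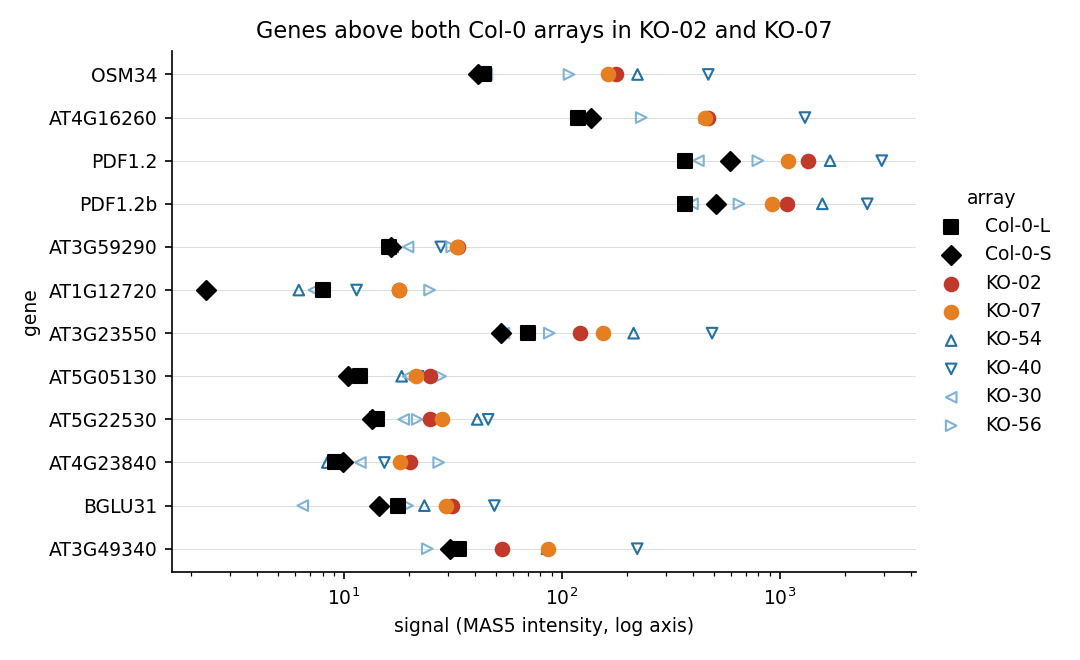
MAS5 signal (log axis) of the 12 genes with the widest gap above Col-0, one point per array: filled symbols are KO-02, KO-07 and the Col-0 arrays, open symbols the other 4 lines. For OSM34 the lines sit at 178 and 163 and Col-0 at 44.0 and 41.3, while KO-40 reaches 471 and KO-30 stays at 45.4.

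On the lower side, AT1G11540 stood first. Its signal was 3.41 in KO-02 and 6.48 in KO-07, against 20.4 (Col-0-L) and 27.1 (Col-0-S), a log2 difference of -1.54 ± 0.35. The line signals were near the bottom of the array's range, so the ratio is loosely set. AT1G62500 was brighter, with 69.2 in KO-02 and 71.6 in KO-07 against 114 and 153 (log2 difference -0.86 ± 0.33). TBL36, of the trichome birefringence-like family whose members acetylate cell wall polymers, had 68.6 and 66.8 against 110 and 107. Both groups were tight, and the difference was -0.64 ± 0.22.

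Named regulators and markers were among the dim genes of this side. TRY, a small MYB protein that holds back the formation of leaf hairs next to existing ones, had 9.99 in KO-02 and 10.9 in KO-07 against 24.0 (Col-0-L) and 17.9 (Col-0-S) (log2 difference -0.74 ± 0.23). SAG29, a SWEET sugar transporter known as a marker of leaf ageing, had 10.3 and 10.0 against 17.2 and 32.1. The lines were level and the Col-0 arrays far apart, and the difference was -0.92 ± 0.52. AT1G47400, which is in the iron response list, had 13.1 and 8.95 against 26.2 and 22.9, a difference of -0.89 ± 0.19. For the 6 other genes (AT1G23205, AT3G11210, AT1G19540, AT1G32190, AT2G03280 and AT1G09980), log2 differences lay between -0.86 and -0.58 and every Col-0 signal was between 13.9 and 46.1.

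**Figure D3:**
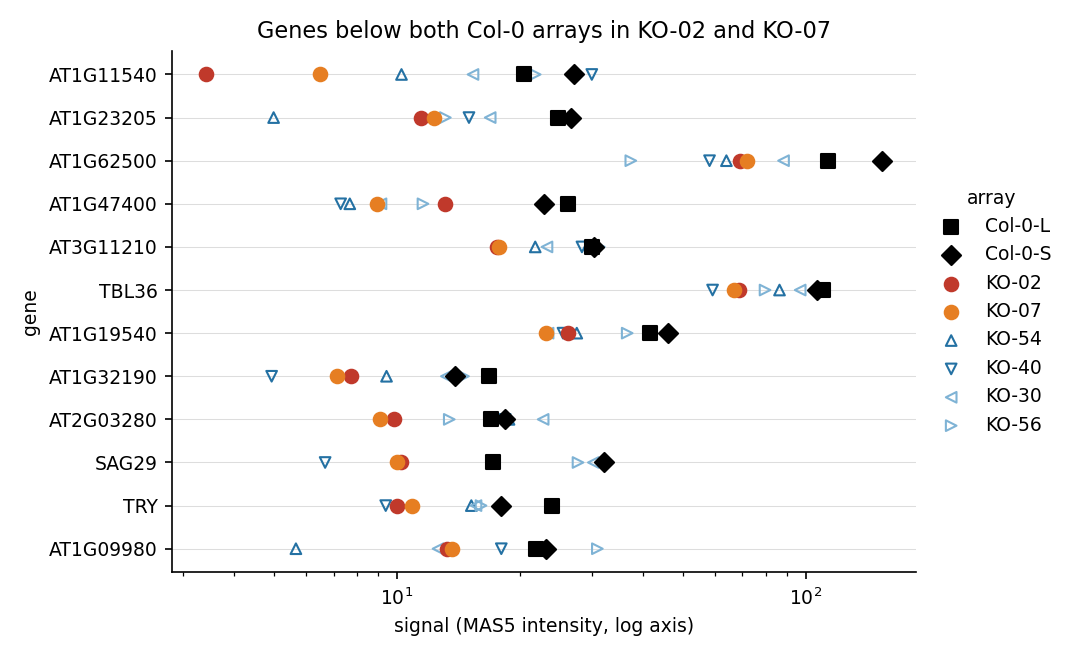
MAS5 signal (log axis) of the 12 genes with the widest gap below Col-0, one point per array, with symbols as for the higher genes. For AT1G11540 the lines sit at 3.41 and 6.48, below all 6 other arrays, of which the lowest is KO-54 at 10.3.

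Low signal was common among the 81 probe sets separated by over 0.5. The median signal was 28.4 in the higher set and 16.8 in the lower set, against 76.2 over all probe sets kept. A mean signal under 40 was found in 67.3% of the higher set, 75.9% of the lower set and 29.5% of all. The annotation gave 1 gene for 21 of the 52 and for 15 of the 29, and 31 and 13 were unlisted in it. Of the 15 lower genes, 8 lay on chromosome 1 (53.3%, against 26.3% of all genes kept). Of the 20 higher genes with a nuclear position, 7 lay on chromosome 5 (35%, against 23.9% of all genes kept). Chromosome 4 held 6 of these higher genes (30%, against 14.9%) and chromosome 1 held 1 (5%, against 26.3%). No pair of these genes in either set lay within 3 genes of each other, among 19 and 15 placed.

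At the edge of the shared sets the gap is close to 0 and the calls are arbitrary. AT2G27740 was just inside the higher set, with 10.87 in both Col-0-S and KO-07, and AT1G52180 just outside. AT5G25080 was just inside the lower set and AT1G66660 just outside. The 12th higher gene, AT3G49340, had a gap of 0.596 and the 13th, AT4G00670, 0.593. On the lower side AT1G09980 had 0.528 and AT1G53620 0.520.

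Gene lists were described by how many of their members lay on one side of both Col-0 arrays. Read against 19.2% above and 18% below over all probe sets, and against an overall median difference of 0.00, the counts below describe each list, and no member of any list was called. Of the 6 senescence genes, 4 lay above both Col-0 arrays, 1 below (SAG29) and 1 overlapped, with a median log2 difference of 0.41. WRKY6, a regulator tied to ageing and phosphate use, had 44.1 in KO-02 and 53.4 in KO-07 against 30.05 and 31.2 (0.59 ± 0.31). WRKY53, a regulator that speeds leaf ageing, had 248 and 326 against 211 and 190 (0.50 ± 0.31). YLS5, a leaf senescence marker, had 337 and 328 against 254 and 232 (0.44 ± 0.29). The ageing markers thus did not lie on one side, since SAG29 lay below.

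Only 6 probe sets carry a WRKY symbol in the annotation used, so the counts are not those of the whole family, and WRKY42 did not pass the filter. WRKY6, WRKY53 and WRKY47 lay above both Col-0 arrays, WRKY20 and WRKY22 overlapped them, and the median of the 5 was 0.37. It was 0.25 without Col-0-L and 0.46 without KO-02. Of the 8 genes in the list of rapid stress and touch responses, 4 lay above and 0 below, with a median of 0.38, which was 0.22 without Col-0-L and 0.23 without KO-07. The 4 were WRKY53, the ubiquitin ligases PUB23 and PUB24 that dampen immune signalling, and the zinc finger repressor STZ, known from salt, cold and wounding. PUB23 had 37.8 in KO-02 and 52.8 in KO-07 against 27.8 and 27.6 (0.60 ± 0.25). STZ had 566 and 767 against 459 and 550, so the nearest arrays were almost level. In the jasmonate and ethylene list, 3 of 6 lay above, all defensins (PDF1.2, PDF1.2b and PDF1.4), and the thionin THI2.2, an antimicrobial peptide, lay below with 61.8 and 47.1 against 86.1 and 66.2. The median was 0.26, with 0.18 when Col-0-L was left out and 0.33 when Col-0-S was. ORA47 and THI2.1 overlapped Col-0.

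The ATG8 family, small proteins joined to the autophagosome membrane as it forms, made up nearly all of the autophagy list. Of its 10 members 5 lay above and 0 below, with a median of 0.11 (0.18 without Col-0-S). APG8A had 330 in KO-02 and 355 in KO-07 against 257 and 266 (0.38 ± 0.23), while ATG8C, ATG8F and ATG8G differed from Col-0 by at most 0.02. Enzyme families of secondary metabolism were added as lists after the values were seen. Of 28 UDP-glycosyltransferases, which attach sugars to hormones and small molecules, 10 lay above and 0 below (median 0.10, 0.16 without Col-0-L and 0.06 without Col-0-S), led by UGT73D1 with 34.7 and 43.9 against 22.8 and 15.1. Of 13 cytochrome P450 genes 6 lay above and 0 below (median 0.16, 0.08 without Col-0-S and 0.25 without KO-02), led by CYP71B23 with 215 and 229 against 151 and 158. As first drawn, with 2 cyclophilins of like symbols, the P450 median was 0.09 over 15 genes. In the list of calcium sensors and kinases, which was also added after the values were seen, all 7 members are calmodulin-like (CML) genes. Of these, 3 lay above and 0 below, with a median of 0.18. It was 0.09 without KO-07, 0.30 without KO-02 and 0.27 without Col-0-S.

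Cell wall genes lay on the other side. Of the 16 expansins and xyloglucan endotransglucosylases past the filter, which loosen walls as cells grow, 9 lay below both Col-0 arrays and 0 above, with a median of -0.30. EXPB3 had 122 in KO-02 and 126 in KO-07 against 203 (Col-0-L) and 181 (Col-0-S) (-0.61 ± 0.22). EXPA15 had 40.8 and 39.7 against 56.8 and 62.6 (-0.51 ± 0.25), and XTH32 had 228 and 222 against 297 and 301 (-0.40 ± 0.29). In each of these genes the lines were within a few percent of each other, which the choice by gap favours. EXPA9, also below both Col-0 arrays, had 12.3 in KO-02 and 19.5 in KO-07. Of the 6 GH9 endoglucanases, cellulases that act on the growing wall and were added after the values were seen, 4 lay below and 1 above (GH9A3), with a median of -0.28. GH9B7 had 255 and 276 against 342 in both Col-0 arrays.

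Of the 5 iron response genes past the filter, AT1G47400 and AT5G05250 lay below both Col-0 arrays and 3 overlapped, among them the regulator PYE (median -0.24). That median was -0.49 without KO-02 and -0.15 without either KO-07 or Col-0-L. AT5G05250 had 14.9 in KO-02 and 14.1 in KO-07 against 22.6 and 35.6. In the 13 nuclear photosynthesis genes 3 lay below (CHLM, PORB and SBPASE) and 0 above, with a median of -0.15. After quantile normalization that median was -0.03, and the Col-0 arrays themselves lay 0.13 above and 0.13 below their mean, further from each other than the pair was from that mean. Without Col-0-L the median was -0.0015, and without Col-0-S it was -0.26. The 69 plastid-encoded probe sets were near level, with 7 above, 8 below and a median of -0.04, which turned to 0.01 after quantile normalization and was 0.0065 without Col-0-L and -0.09 without Col-0-S. Of the 4 reference genes TUA6 and GAPC2 lay below (median -0.13, -0.06 after quantile normalization and -0.05 without Col-0-L).

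The remaining lists were small or mixed, and the medians of those with 3 or more members moved by over 1.5 times or changed sign when 1 array was left out. Beta-glucosidases, added after the values were seen, had 3 above and 4 below among 11 (median -0.04). Histones had 0 above and 2 below among 6 (median -0.02), and the cold and abscisic acid list had 1 above, STZ, among 6 (median -0.05). The 3 flavonoid genes UGT78D2, UF3GT and DFR all overlapped Col-0 (median 0.16, and -0.13 without Col-0-L). CHI was first counted with them by its symbol, giving a median of 0.25 over 4 genes, but its annotation is that of a putative chitinase. It had 860 and 942 against 671 and 668. GRX480, a glutaredoxin of salicylic acid signalling, lay above with 65.1 and 103 against 62.8 and 59.3. GI, of the clock, had 538 and 484 against 480 and 402, and with it the flowering time list had 1 of 3 above (median -0.01). IAA29 and the heat shock gene HSA32 lay below, at -0.36 and -0.24, and both glucosinolate genes overlapped Col-0.

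**Figure D4:**
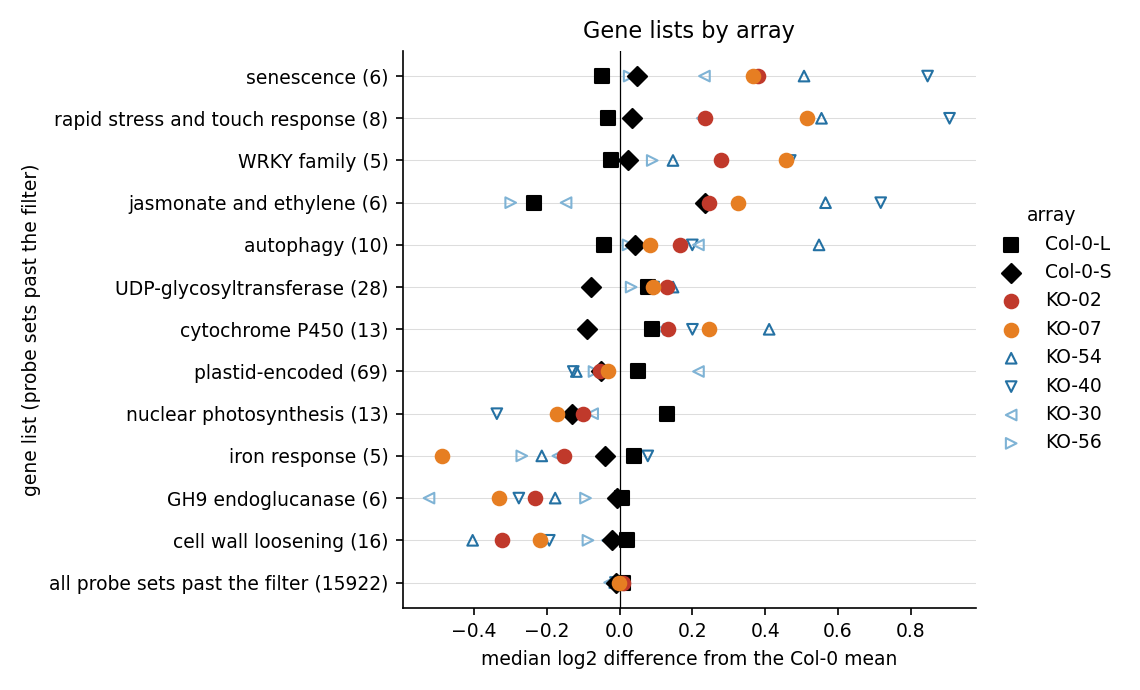
Median log2 difference from the Col-0 mean for 12 gene lists and all probe sets past the filter (horizontal axis), one point per array, with the number of probe sets in brackets. In the senescence list KO-02 and KO-07 sit at 0.38 and 0.37, KO-40 at 0.85 and KO-56 at 0.03, and in the cell wall list KO-02 and KO-07 sit at -0.32 and -0.22, KO-54 at -0.40, KO-40 at -0.19, KO-56 at -0.09 and KO-30 at -0.03.

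Whether these differences belonged to the pair was read from the other 4 lines. Both comparisons share KO-02 and KO-07, and the values of all lines rest on the same Col-0 arrays. In the test of the pair against the 4 other lines, limma called 0 of 15922 probe sets (0%, smallest adjusted p 0.9999), with 285 at an unadjusted p under 0.05. OSM34 had 471 in KO-40, 223 in KO-54 and 108 in KO-56, and 45.4 in KO-30, so the pair lay within the range of the other lines and differed from their mean by 0.15 ± 0.72. For AT4G16260 KO-40 had 1308, KO-54 454, KO-56 232 and KO-30 129. PDF1.2 likewise ran from 425 in KO-30 through 795 in KO-56 and 1706 in KO-54 to 2945 in KO-40. In all 3 genes the order was KO-40 highest and KO-30 lowest of the 4, with KO-30 at or near the Col-0 level.

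Over the 52 probe sets of the higher set the median log2 difference from Col-0 was 0.82 for the pair, 1.17 in KO-40, 0.83 in KO-54, 0.53 in KO-56 and 0.13 in KO-30. In the lower set of 29 it was -0.74 for the pair, -0.80 in KO-40, -0.58 in KO-54, -0.38 in KO-30 and -0.25 in KO-56. All of these values use the same 2 Col-0 arrays, and the sets were chosen by where those arrays lay. That choice favours other lines falling on the same side as the pair, here and in the counts and genes that follow. Of the 29, 27 lay below both Col-0 arrays in KO-54, 26 in KO-40, 22 in KO-30 and 20 in KO-56. Of the 52, 47 lay above both in KO-54, 50 in KO-40, 43 in KO-56 and 30 in KO-30. Over all 15922, between 4932 and 6354 lay below in a line, and between 5051 and 5734 above. AT1G47400 was between 7.29 and 11.6 in the other 4 lines, so it was below Col-0 on all 6 line arrays. The same held for AT1G23205, AT1G62500, TBL36, AT1G19540 and TRY of the first 12 lower genes.

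Fewer probe sets set the pair apart from every other array. Both lines lay above all 6 other arrays in 348 probe sets (2.19%) and below in 283 (1.78%). Order alone also puts some probe sets there. Among those with 1 gene, AT1G11540 had the widest lower gap, 0.41, since KO-40 had 29.97, KO-56 21.8, KO-30 15.4 and KO-54 10.3, and the pair differed from these lines by -1.24 ± 0.30 on the log2 scale. AT1G33260 had 15.4 in KO-02 and 11.6 in KO-07 and between 21.6 and 24.8 on the other 6 arrays (-0.60 ± 0.13 against the other lines). AT2G03280 had 9.82 and 9.08 in the pair and between 13.4 and 22.8 elsewhere. AT5G44350 and AT1G69020 were next, at -0.75 and -0.59 against the other lines.

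On the higher side CLE21, a gene for a small secreted signalling peptide, had 17.2 in KO-02 and 15.6 in KO-07 and at most 11.5 on the other 6 arrays, a difference of 0.51 ± 0.15 from the other lines. AT5G66550 had 33.6 and 38.1 in the pair and at most 25.2 elsewhere. AT1G02070 had 22.1 and 19.7 and at most 14.3 elsewhere. AT1G49570 and AT3G57440 had narrower gaps, 0.23 and 0.20. All 10 genes had signals under 40 on every array, and their adjusted p against the other lines in limma was at least 0.9999.

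Likeness of the pair also left genes in which the lines differed. In limma, KO-02 against KO-07 gave 0 calls of 15922 (0%), with 224 at an unadjusted p under 0.05, and a smallest adjusted p of 1.00. QQS, a gene without known relatives in other plants that affects starch content, had 510.1 in KO-02 and 93.1 in KO-07, with 165 (Col-0-L) and 137 (Col-0-S). It was bright on every array, and it ran from 86.8 in KO-30 to 340 in KO-40 among the other lines. AT1G09230 had 73.6 in KO-02 and 25.7 in KO-07 against 46.5 and 39.9. The 6 others were dim in at least 1 of the lines, with 2.84 or less for AT3G48540 and AT3G18770 in KO-07 and 3.03 or less for AT3G24250, AT5G10830, AT1G33760 and AT5G52950 in KO-02.

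**Figure D5:**
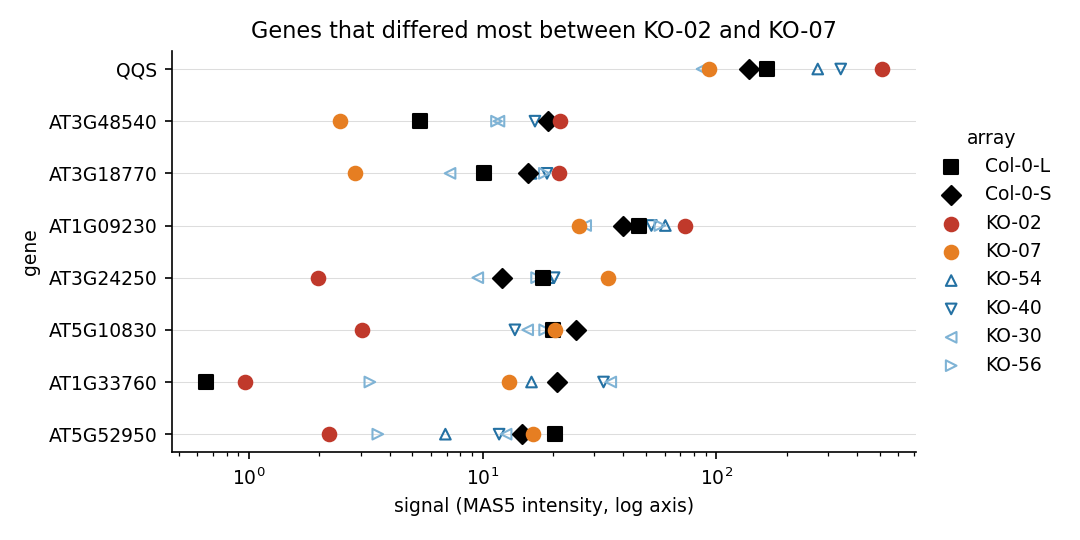
MAS5 signal (log axis) of the 8 genes that differed most between KO-02 and KO-07, one point per array, with symbols as for the higher genes. For QQS KO-02 sits at 510.1 and KO-07 at 93.1, on opposite sides of the Col-0 arrays at 165 and 137.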

How the data were processed

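The authors deposited 1 table of intensity values, MAS5 signals on a linear scale per the submitters' processing notes, for 22810 probe sets on 8 arrays. The version of MAS5 was not given in the sources used here. The trimmed mean was the same on all arrays (100.0), so the deposited scaling was kept. Every column was matched to a sample by its sample identifier, titles gave the group names, and 0 columns lacked a sample. After removal of 64 controls, 22746 probe sets remained, of which 13513 had 1 gene symbol in the platform annotation, 503 several, and 8730 were unlisted. Of the single symbols, 13436 were found in the TAIR10.1 gene table and updated from it.

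The log2 was taken after adding 5 (the 20th percentile of the signals was 4.59), and probe sets whose mean log2 lay above the 30th percentile were kept (15922, 8750 with 1 gene). A two-sided moderated test (limma 3.58.1, R 4.3.3, Benjamini-Hochberg adjustment) was fitted to all 8 arrays with 4 levels: KO-02, KO-07, Col-0 and the 4 other lines. It had 4 residual degrees of freedom, and the difference within the pair, which was chosen for likeness, was kept out of the spread. The procedure was tested on simulated data. Every simulated array had the spread of the Col-0 pair, and differences among the 4 other lines were not simulated. No label states that the Col-0 arrays are of separately grown plants, so a p-value here reflects the spread among the arrays at hand, part of which may be technical. Precision is limited by the number of arrays.

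Named genes were the 12 with the widest gap in each direction, the 5 in each direction with the widest gap to all 6 other arrays, the 4 in each direction that differed most between KO-02 and KO-07, and up to 4 per list by gap. AMY1, CHI, list members outside this rule and the gap limit of 0.5 were chosen after values were seen. The members and lists were chosen with earlier results of these data known. Of 24 lists, those of cytosolic ribosomal proteins and mitochondrion-encoded genes had no match by the symbols and loci used. CHI and CCR2 were taken out of the flavonoid and clock lists after values were seen, because these symbols belong here to other genes. Another 5 lists were drawn after the values were seen, and they were trimmed after that too: MYB and aquaporin lists with 0 members and a pectin list with 1 member (PME61, log2 difference 0.00) were dropped, and 2 cyclophilins were taken out of the P450 list. Lists share members, such as WRKY53. Alternatives were pseudocounts of 1 and 21, no filter or a median filter, quantile normalization, median centring, other variance models, fewer arrays in the fit and leaving out arrays.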

Additional observations from a re-analysis of the deposited data

Results flagged for a closer look

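In 5 of the 8 genes that differed most between KO-02 and KO-07, the lines lay on opposite sides of both Col-0 arrays. The KO-02 minus KO-07 log2 difference was 2.39 for QQS, 1.83 for AT3G48540, 1.74 for AT3G18770 and 1.36 for AT1G09230, and -2.50 for AT3G24250. The test of this difference in limma called none of them (adjusted p = 1.00 for each, from 1 array a line), and these genes were picked as the ones that differed most. Signals were 21.5 against 2.44 for AT3G48540, 21.3 against 2.84 for AT3G18770 and 1.96 against 34.3 for AT3G24250 in KO-02 and KO-07, so these 3 rest on a reading near the bottom of the range in 1 line. No group had the 4 arrays needed for a search of single stray arrays, other than by pooling different lines.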

How the results depend on the processing

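limma called 0 probe sets in each of the 3 comparisons under every one of the 18 alternatives that could give it, with 1016 at an unadjusted p under 0.05 (smallest adjusted p 0.0748) when only the pair and Col-0 were fitted. Of the named genes' 1995 alternative values, 1980 kept their direction, 15 in 12 genes did not, and 0 passed the threshold. PRK turned to 0.013 under quantile normalization. With 1 array left out at a time, log2 differences that crossed 0 ran from -0.34 to 0.048 for RCA, -0.12 to 0.026 for LTI30, -0.24 to 0.015 for COR15A, -0.051 to 0.11 for COR47, -0.15 to 0.027 for AT3G56360, -0.13 to 0.80 for UF3GT, -0.61 to 0.23 for DFR, -0.52 to 0.025 for BCAT4, -0.16 to 0.15 for FY, -0.0061 to 0.10 for HTR12 and -0.094 to 0.051 for PEX4. The sets separated by over 0.5 moved with low signal. They held 84 and 55 probe sets (higher and lower) at a pseudocount of 1, 18 and 5 at 21, 157 and 156 with no filter, and 16 and 7 with the median filter. Leaving out any 1 of Col-0-L, Col-0-S, KO-02 and KO-07 asks less of a probe set, and gave 165 to 298 higher and 152 to 205 lower by over 0.5, and 5060 to 6095 and 4919 to 6073 at any gap. With no filter the list median was 0.23 for WRKY genes and -0.080 for GH9 endoglucanases, and with the median filter -0.073 for histones. With 1 array left out at a time, list medians ran from -0.35 to -0.23 for GH9 endoglucanases, 0.083 to 0.18 for autophagy, -0.10 to -0.015 for beta-glucosidases, -0.34 to -0.22 for cell wall genes, -0.072 to -0.0093 for histones -0.49 to -0.15 for iron genes, 0.22 to 0.52 for rapid stress genes, 0.095 to 0.30 for calcium sensors, 0.076 to 0.25 for P450 genes, 0.063 to 0.16 for UDP-glycosyltransferases, -0.26 to -0.0015 for photosynthesis genes and -0.19 to -0.054 for reference genes. Those that crossed 0 ran from -0.13 to 0.30 for flavonoid genes, -0.11 to 0.043 for cold and abscisic acid, -0.14 to 0.15 for flowering time and -0.090 to 0.0065 for plastid-encoded genes. The causes were not tested. KO-02 against KO-07 was put through these alternatives by a choice made after seeing the data. No paired analysis was possible because each line has 1 array and shares at most 1 replicate number with Col-0.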
